A study of Mus musculus with 6 samples.

Results

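The stereocilia actin core and rootlet genes are 10 genes taken by symbol from the 24411 gene symbols of a cochlear RNA-seq data set: the actins Actb and Actg1, the filament bundlers Espn, Fscn1, Fscn2, Pls1, Pls3 and Lcp1, the rootlet gene Triobp and the filament-binding gene Xirp2. They were compared between Kir2.1-OE mice and littermate controls at postnatal day 9 (P9). Kir2.1-OE mice carried 1 Otof rtTA allele and 1 copy of a tetO-Kir2.1 transgene, so that doxycycline (DOX) in the drinking water, at 0.5 mg/ml, induced Kir2.1, an inwardly rectifying K+ channel, where the Otof promoter was active, in hair cells and mainly in inner hair cells (IHCs). Controls had the Otof rtTA allele without the transgene and received DOX as well. Each group was 3 pools, each of the sensory epithelium of 8 cochleae from 4 mice of a C57BL/6N background, so the pool was the replicate and values of single mice were not recorded. The counts were those of dissected tissue: fewer cells of a type and less RNA per cell cannot be told apart in them, and neither can a difference in IHCs and a difference in the cells around them.

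Stereocilia are actin-filled protrusions arranged in rows on the apical surface of each hair cell, and their deflection opens the mechanotransducer channels. The core of each stereocilium is a bundle of parallel filaments of beta- and gamma-actin, held together by espin, fascin and the plastins, also called fimbrins. Filaments of the core continue through the tapered base into the cell body as a dense rootlet, which is wrapped by TRIOBP and lets the stereocilium pivot without breaking. XIRP2 binds actin filaments in stereocilia and the cuticular plate, the actin mesh in which rootlets are anchored, and has been tied to the upkeep of the bundle. The study set out to find how IHC electrical activity before the onset of hearing affects the hair bundle, and the comparison here asks which genes of the filament core and its rootlet differed in level in the pools with Kir2.1 overexpression.

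Actb and Actg1 are the members on which the largest counts rest, and their coding sequences are alike enough that the assignment of reads between them has to be considered. Both are 1128 bases long in the GENCODE vM21 transcripts of mm10, differ at 128 positions and are 88.7% identical. Of these differences 8 fell at the first codon position, 0 at the second and 120 at the third. The first 60 coding bases, which cover the segment near the amino terminus where the proteins differ, are shown from position 1 at the start codon, with the bases that differ between the genes in capitals.
Actb: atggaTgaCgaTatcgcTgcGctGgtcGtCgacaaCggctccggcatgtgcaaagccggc
Actg1: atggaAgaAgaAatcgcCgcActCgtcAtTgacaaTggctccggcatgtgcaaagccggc
In this stretch 9 bases differed. The longest run without a difference was 62 bases, and none of the 979 windows of 150 bases, the read length of the study, lacked a difference (0 windows). Reads of processed actin pseudogenes and of the muscle actins were not separated from those of the 2 genes in this comparison, so the counts of both actins remain less certain than those of the other members.

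The promoters of the members were searched on both strands for 2 elements known from actin and muscle genes, the CArG box bound by SRF and the MEF2 site, which share an A- and T-rich centre and can overlap. RefSeq windows that begin 250 bases before a start site (GRCm38.p6) were present for 9 of the 10 members, 15 windows in all. Actb had no window. Matches were counted over the whole window as given. The CArG box was found in 1 of the 15 windows, that of Actg1, and in 1.63% of all 32851 windows. The MEF2 site was also found in 1 of the 15, that of Xirp2, and in 3.19% of all windows. Of these 2 windows the 250 bases before the RefSeq start site are printed, with the match in capitals. They were the only member windows with a match. The GENCODE gene of Actg1 starts further upstream than the RefSeq site, at 120348542, so the last part of its printed window lies within that gene. The match in Actg1 (chr11:120348496-120348745, minus strand) is followed by 80 bases before the RefSeq start site.
Actg1 promoter: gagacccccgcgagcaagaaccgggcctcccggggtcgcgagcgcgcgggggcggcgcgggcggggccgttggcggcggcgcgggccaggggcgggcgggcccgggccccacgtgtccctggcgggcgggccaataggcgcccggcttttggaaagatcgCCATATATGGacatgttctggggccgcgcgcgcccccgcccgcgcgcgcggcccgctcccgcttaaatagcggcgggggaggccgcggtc
The match in Xirp2 (chr2:67445752-67446001, plus strand) is followed by 64 bases before the start site.
Xirp2 promoter: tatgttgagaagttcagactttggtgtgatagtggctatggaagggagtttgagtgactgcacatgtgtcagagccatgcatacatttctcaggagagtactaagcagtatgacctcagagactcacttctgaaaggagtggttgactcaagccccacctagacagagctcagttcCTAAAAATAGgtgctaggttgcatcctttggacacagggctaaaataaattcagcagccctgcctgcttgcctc
A match describes the letters only and was not tested as a binding site.

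Between 35430940 and 38193109 reads were assigned to genes in the Kir2.1-OE libraries and between 37063812 and 41205047 in the controls, of which the 10 members took between 0.424% and 0.446%. A gene without a read in a library could hold up to 8.47e-06% of that library's reads (3 counts), and all 10 members were far above that and passed the filter on low counts, as 15303 genes did. Kcnj2, which encodes Kir2.1, had normalized counts of 3612, 3813 and 2213 in the Kir2.1-OE pools and of 236, 228 and 226 in the control pools, in the order of their replicate numbers that is kept below, in accordance with the labels of all 6 libraries. Hair cell genes were well represented: the normalized count of Otof, an IHC gene, lay between 1749 and 4089. Throughout, normalized counts are the deposited read estimates scaled by TMM library size, and fold changes are Kir2.1-OE over control. A gene was said to have passed the test at an adjusted p under 0.05 by the quasi-likelihood test of edgeR, adjusted after Benjamini-Hochberg over all genes tested, and was called if its fold change was also above 1.5. Genes with long transcripts had higher fold changes across the whole data set: the median log2 fold change was -0.34 over the 3164 genes whose longest transcript was under 2000 bases and 0.81 over the 884 genes above 8000 bases. Each member is therefore also given with offsets that remove the trend with transcript length and GC content, computed from the longest transcript of each gene.

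Of the 10 members, 2 were called higher in Kir2.1-OE, Lcp1 and Xirp2, where 15.5% of all genes tested were, and 0 were called lower, where 5.08% were. At the adjusted p alone 6 members rose (Triobp, Actb, Lcp1, Xirp2, Espn and Fscn1) and 1 fell (Actg1), beside 27.3% and 23.5% of all genes in these directions. The unadjusted p was under 0.05 in the same 7 members, and DESeq2's Wald test with the same thresholds also called 2 members higher and 0 lower. In 6 members every Kir2.1-OE library was above every control library and in 2, Actg1 and Fscn2, every one was below, where 31.6% and 29.9% of all genes were so separated. The median log2 fold change of the 10 members was 0.32, against 0.01 over all genes tested. With the length and GC offsets these medians were 0.01 and -0.04, 1 member (Actb) was called higher where 6.46% of all genes were, and 0 were called lower where 3.41% were. With offsets from the median transcript length instead, 1 member (Lcp1) was called higher, beside 10.9% of all genes, and 0 lower, beside 5.5%. When fold changes were tested against a log2 value of 0.6 with glmTreat, an edgeR test, 0 members passed in either direction, beside 5.44% of all genes higher and 0.372% lower.

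**Figure D1:**
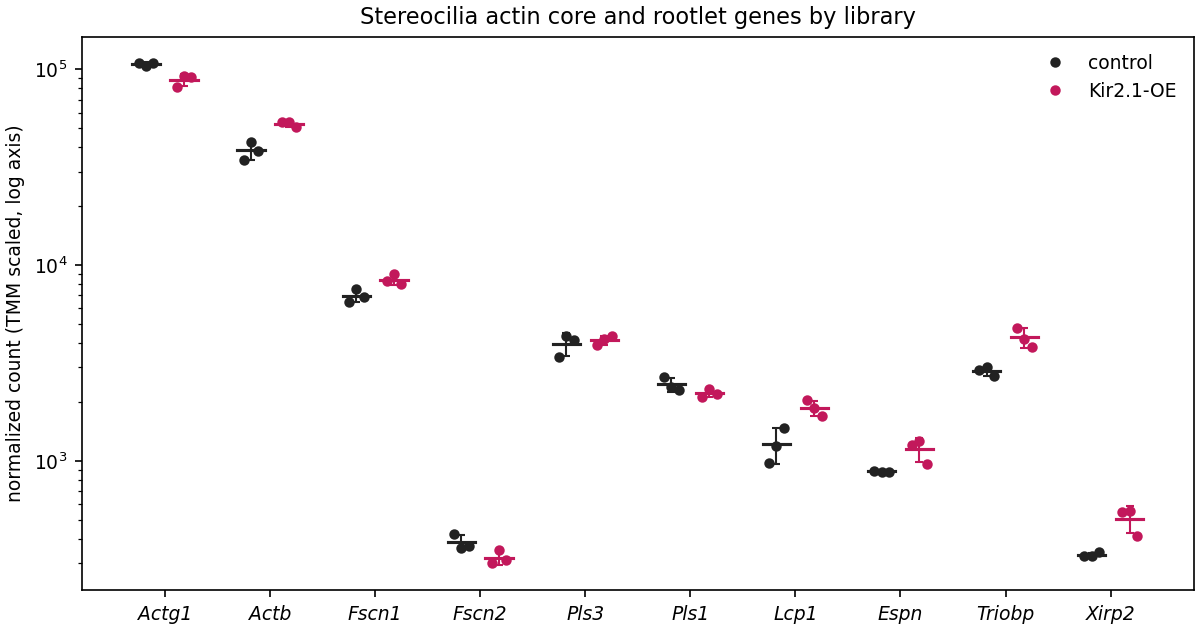
Normalized counts (TMM scaled, log axis) of the 10 genes in each library, black for the 3 control pools and magenta for the 3 Kir2.1-OE pools, with the group mean as a horizontal line and the SD as an error bar. The groups are apart in 8 genes and overlap in Pls1 and Pls3; Kir2.1-OE lies lower in Actg1 and Fscn2.

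In control cochleae the members spanned a wide range of levels per length, given as counts per 1000000 assigned reads (CPM) and per kilobase of the longest transcript. Actg1 was the highest at 1455 ± 32.1 (SD, n = 3), followed by Actb at 535 ± 56.4 and Fscn1 at 69.5 ± 5.28. Pls3 (32.5 ± 4.13) was above Pls1 (17.7 ± 1.52), and both were above Triobp (10.4 ± 0.606). These neighbours did not overlap between libraries. Lcp1 (8.42 ± 1.68) ranged from 6.81 to 10.2 and overlapped Triobp, which ranged from 9.76 to 10.9, so their order was not resolved. Fscn2 (5.96 ± 0.547) and Espn (5.10 ± 0.0514), the 2 members best known for hair cell expression, were close to the middle of all genes tested, at percentiles 49.1 and 45.5. Xirp2 was the lowest at 0.737 ± 0.0135. In the Kir2.1-OE pools Espn, at 5.54 to 7.18, was above Fscn2, at 4.72 to 5.35. In the controls Fscn2, at 5.60 to 6.59, was above Espn, at 5.05 to 5.15. These levels carry no offsets, under which the log2 fold change was -0.25 for Espn and -0.17 for Fscn2. The order depends on which transcript is taken: with the median transcript length of each gene Pls1 reached 107 in controls and exceeded Pls3 at 34.1, and Lcp1 (46.7) exceeded Triobp (37.2).

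**Figure D2:**
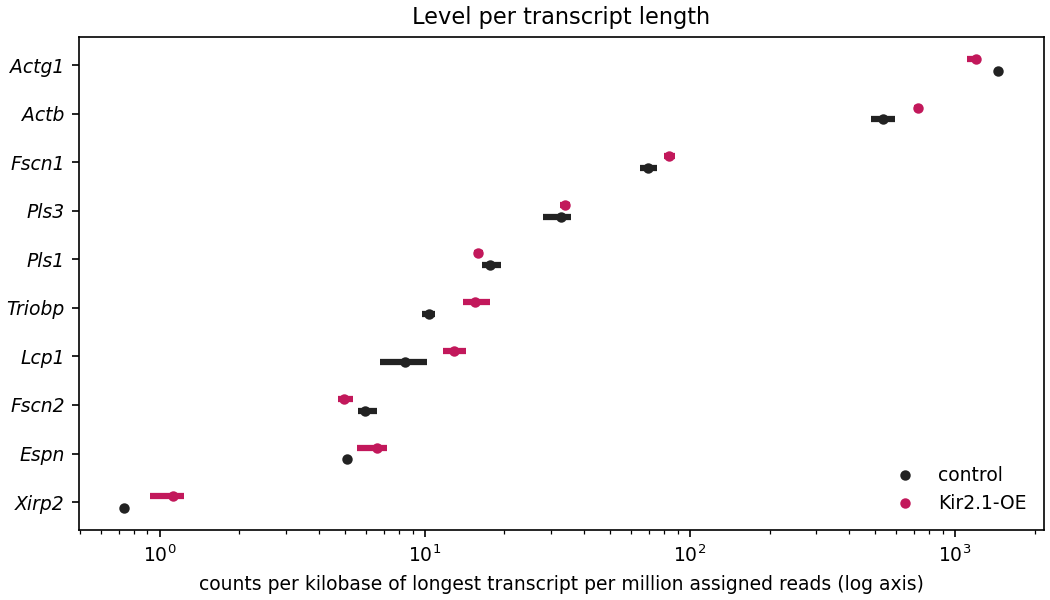
Level per transcript length (CPM per kilobase of the longest transcript, log axis) of each gene, black for control and magenta for Kir2.1-OE, as the mean of 3 pools (point) and the range (bar). Actg1 has the highest level in both groups and Xirp2 the lowest. Espn and Fscn2 exchange places between the groups in these levels, which carry no length and GC offsets.

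The actins moved in opposite directions. Actb (ENSMUSG00000029580.14, chr5:142903115-142906754, minus strand), which encodes beta-actin, had normalized counts of 53452, 53712 and 50424 in the Kir2.1-OE libraries and of 34516, 42682 and 38385 in the controls. All 3 Kir2.1-OE values exceeded the highest control. Actb rose by 0.45 on the log2 scale (SE 0.0911, 95% interval 0.24 to 0.65), a fold change of 1.36, with an adjusted p of 0.00313 by the edgeR quasi-likelihood test, below the 1.5-fold threshold. Actg1 (ENSMUSG00000062825.15, chr11:120345690-120348542, minus strand), which encodes gamma-actin, the other non-muscle actin of hair cells, had 80759, 92719 and 91099 in the Kir2.1-OE libraries and 107806, 103670 and 108103 in the controls. Here all Kir2.1-OE values were below the lowest control. Actg1 fell by 0.27 on the log2 scale (SE 0.0820, 95% interval -0.46 to -0.09), to a fold of 0.828, with an adjusted p of 0.0202 by the edgeR quasi-likelihood test, and did not pass without control replicate 3 (edgeR adjusted p 0.0662). The longest transcripts of the 2 genes have 1920 and 1952 bases and a GC content of 51.1% and 52.6%, so length and GC content differed little between them. With the offsets the log2 fold change of Actb was 0.64 (edgeR adjusted p 0.00171, called) and that of Actg1 was -0.10 (edgeR adjusted p 0.322), which no longer passed.

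Within each library the ratio of Actg1 to Actb does not depend on how libraries were scaled to each other. It was 1.51, 1.73 and 1.81 in the Kir2.1-OE libraries and 3.12, 2.43 and 2.82 in the controls, without overlap. The ratio was 0.604 times that of the controls, a log2 difference of -0.73, and -0.75 with the offsets. The exact permutation test gave p = 0.10 (two-sided, 3 against 3), the smallest this design allows, and 0.15 after Benjamini-Hochberg adjustment over the 3 ratios computed. Leaving out any library kept the log2 difference between -0.82 and -0.64. Counts of Actb and Actg1 together were 140722 ± 6149 in Kir2.1-OE and 145054 ± 2367 in controls (SD, n = 3) and overlapped between the groups. Actb made up 39.8%, 36.7% and 35.6% of this sum in the Kir2.1-OE libraries and 24.3%, 29.2% and 26.2% in the controls.

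**Figure D3:**
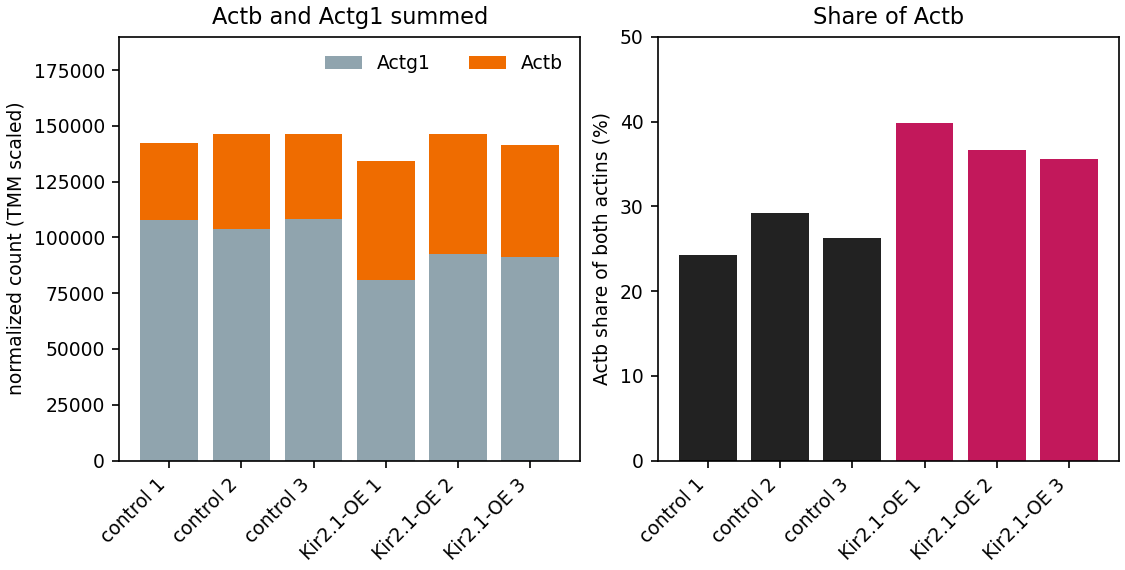
Left, normalized counts of Actg1 (grey) and Actb (orange) stacked in each of the 6 libraries; right, Actb as a percentage of the 2 actins, black for control and magenta for Kir2.1-OE. The stacks reach similar heights in both groups, while the Actb share is between 35.6% and 39.8% in Kir2.1-OE and between 24.3% and 29.2% in control.

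The paralogous fascins, which pack filaments into tight parallel bundles, had fold changes of opposite sign, and which of them passed the test depended on the scaling. Fscn1 (ENSMUSG00000029581.14, chr5:142960343-142973185, plus strand), the broadly expressed fascin, had 8251, 8995 and 8004 normalized counts in Kir2.1-OE and 6491, 7539 and 6880 in control libraries. The lowest Kir2.1-OE value exceeded the highest control value. Fscn1 rose 1.21-fold (log2 0.27, SE 0.0819, 95% interval 0.09 to 0.46, edgeR adjusted p 0.0203). It no longer passed without Kir2.1-OE replicate 1 or 2 or control replicate 1 or 3, where the edgeR adjusted p was 0.0518, 0.119, 0.0709 and 0.0626. Fscn2 (ENSMUSG00000025380.2, chr11:120361534-120368168, plus strand), the fascin of hair cells and photoreceptors, had 300, 350 and 310 in Kir2.1-OE and 421, 359 and 368 in control libraries. These groups did not overlap either, with the nearest libraries at 350 and 359. The log2 fold change of Fscn2 was -0.26 (SE 0.121, 95% interval -0.53 to 0.01) and did not pass the test (edgeR adjusted p 0.101). Under upper quartile scaling Fscn2 passed as lower (log2 -0.35, edgeR adjusted p 0.0381) and Fscn1 did not pass (log2 0.18, edgeR adjusted p 0.0818). The ratio of Fscn2 to Fscn1 was 0.0364, 0.0389 and 0.0388 in Kir2.1-OE and 0.0650, 0.0477 and 0.0535 in controls, a log2 difference of -0.53 with an exact permutation p of 0.10 (adjusted 0.15). The offsets changed this difference to -0.24, and under them the log2 fold changes were 0.08 for Fscn1 and -0.17 for Fscn2, neither past the test (edgeR adjusted p 0.470 and 0.299).

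Of the 3 plastins, which crosslink filaments through paired actin-binding domains, only Lcp1 passed the test. Pls1 (ENSMUSG00000049493.13, chr9:95752642-95845311, minus strand), the plastin of stereocilia and intestinal microvilli, had 2113, 2338 and 2205 normalized counts in Kir2.1-OE and 2680, 2377 and 2302 in controls. Pls3 (ENSMUSG00000016382.15, chrX:75785654-75875182, minus strand), the plastin of many solid tissues, had 3888, 4170 and 4313 in Kir2.1-OE and 3374, 4335 and 4162 in controls. In both genes the groups overlapped. The log2 fold change was -0.14 for Pls1 (95% interval -0.32 to 0.03, edgeR adjusted p 0.155) and 0.06 for Pls3 (95% interval -0.16 to 0.28, edgeR adjusted p 0.641), and that of Pls3 turned to -0.029 under upper quartile scaling, which shifted the median of all genes by -0.0893. Under that scaling Pls1 passed as lower (log2 -0.23, edgeR adjusted p 0.0368). The ratio of Pls3 to Pls1 overlapped between the groups too, with a log2 difference of 0.21 (exact permutation p 0.40, adjusted 0.40). With the offsets this difference was 0.25. The log2 fold changes were then -0.06 for Pls1 and 0.18 for Pls3, neither past the test (edgeR adjusted p 0.572 and 0.179).

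Lcp1 (ENSMUSG00000021998.16, chr14:75131101-75230842, plus strand), known as L-plastin of leukocytes and also found in immature hair cell bundles, had 2034, 1850 and 1694 normalized counts in Kir2.1-OE and 977, 1191 and 1473 in controls. All Kir2.1-OE values were above the controls, which themselves were widely spread. Lcp1 rose 1.53-fold (log2 0.62, SE 0.137, 95% interval 0.31 to 0.92, edgeR adjusted p 0.00496), with a log2 fold change of 0.55 and an edgeR adjusted p of 0.0130 under the offsets. The call at 1.5-fold was lost without control replicate 1 (log2 0.48) and without Kir2.1-OE replicate 1 (log2 0.53). It was also lost under upper quartile scaling (0.53), under the offsets alone (0.55) or with the replicate block (0.56), and with glmTreat. Lcp1 took 25.3%, 22.1% and 20.6% of the summed counts of the 3 plastins in Kir2.1-OE and 13.9%, 15.1% and 18.6% in controls, while Pls1 took 26.3%, 28.0% and 26.9% against 38.1%, 30.1% and 29.0%. Of 14 leukocyte markers, all of them detected and tested, 0 were called, 3 passed the test higher (Csf1r, Laptm5 and Cx3cr1) and 1 lower (C1qa). Their median log2 fold change was 0.03, and their summed level was 272 to 287 CPM in Kir2.1-OE and 254 to 269 in controls. The part of leukocytes in the Lcp1 difference was not tested.

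Espn (ENSMUSG00000028943.18, chr4:152120331-152152371, minus strand) encodes espin, a bundler that scales the length of stereocilia and is a defining gene of the hair cell bundle. Its normalized counts were 1204, 1266 and 960 in Kir2.1-OE and 889, 879 and 881 in controls. The controls were nearly identical, and all Kir2.1-OE libraries lay above them, replicate 3 by the least. Espn rose 1.30-fold (log2 0.37, SE 0.106, 95% interval 0.14 to 0.61, edgeR adjusted p 0.0154). It no longer passed without Kir2.1-OE replicate 1 (edgeR adjusted p 0.0744) or 2 (0.0812). Its direction depended on the correction for length, and 20 transcripts are annotated for Espn. The log2 fold change was -0.25 (edgeR adjusted p 0.0905) with offsets from the longest, of 4618 bases. With offsets from the median transcript length it was 0.21 (edgeR adjusted p 0.124). Espn passed the test with neither of these offsets. The 8 markers shared by hair cells had a median log2 fold change of 0.00, with 2 called higher (Myo7a and Cdh23) and 1 lower at the adjusted p alone (Lhfpl5). Their summed level was 323 to 367 CPM in Kir2.1-OE and 310 to 339 in controls. The highest sum was in Kir2.1-OE replicate 3 and rested on Pvalb, which had the largest counts of this list. Pvalb had 4222, 4132 and 7027 in Kir2.1-OE and 5246, 5312 and 5044 in controls, and did not pass the test (log2 -0.02). The 5 IHC markers summed to 594 to 847 CPM in Kir2.1-OE and 438 to 488 in controls, with 2 called higher (Otof and Calb2). Calb2 had the largest counts of this list, with the highest, 23168, in Kir2.1-OE replicate 3. Slc17a8 (log2 0.09) and Fgf8 (-0.32) did not pass the test. The median log2 fold change of the list was 0.32, and -0.10 with the offsets. With the offsets Calb2 was still called (log2 0.93), Otof had a log2 fold change of -0.10, and 0 of the 8 shared hair cell markers were called, Myo7a having 0.31 and Cdh23 -0.11. The 5 outer hair cell markers summed to 639 to 799 CPM in Kir2.1-OE and 699 to 876 in controls. Of these, 3 were called higher (Slc26a5, Ikzf2 and Insm1) and 0 lower. Ocm, which had the largest counts of this list, did not pass (log2 -0.30, edgeR adjusted p 0.0576). With the offsets Slc26a5 was called higher (log2 0.71) and Strc lower (-0.68). The part of hair cell number in the differences of Espn and the other members was not tested.

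Triobp (ENSMUSG00000033088.19, chr15:78947724-79005869, plus strand), whose long isoforms wrap the filaments of the rootlet, had normalized counts of 4788, 4199 and 3828 in Kir2.1-OE and 2893, 3000 and 2696 in controls. The groups were far apart, and the adjusted p was the smallest of the 10 members. Triobp rose 1.49-fold (log2 0.58, SE 0.0910, 95% interval 0.37 to 0.78, edgeR adjusted p 8.83e-04), just under the 1.5-fold threshold, and the call was reached without Kir2.1-OE replicate 3 (log2 0.64) or control replicate 2 (log2 0.61). The sign turned under the length and GC offsets, to a log2 fold change of -0.37 that passed the test as lower (edgeR adjusted p 0.00351). The longest transcript of Triobp has 7327 bases, whereas the median of its 12 annotated transcripts is 2053 bases. With offsets from the median length the log2 fold change was 0.32 (edgeR adjusted p 0.0110). The counts are summed over isoforms, so rootlet and other isoforms of Triobp were not separated, and no direction independent of the correction can be given for the gene.

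Xirp2 (ENSMUSG00000027022.13, chr2:67446002-67526614, plus strand), a gene of striated muscle that is also expressed in hair cells, had 548, 555 and 414 normalized counts in Kir2.1-OE and 327, 326 and 340 in controls. The controls differed by little, and the lowest Kir2.1-OE library was still above all of them. Xirp2 rose 1.53-fold (log2 0.61, SE 0.131, 95% interval 0.32 to 0.90, edgeR adjusted p 0.00401) and was called. The call was lost without Kir2.1-OE replicate 1 (log2 0.54) or 2 (log2 0.51) and under the offsets (log2 0.20, edgeR adjusted p 0.249). It was also lost under the offsets with the replicate block (0.19), offsets from the median transcript (0.10), upper quartile scaling (0.52) and glmTreat. Its longest transcript, of 11979 bases, is the longest of the members. Of 13 skeletal muscle markers 3 had enough counts to be tested, 0 of these passed, and the whole list summed to 3.30 to 5.22 CPM in Kir2.1-OE and 3.17 to 5.21 in controls. The 5 smooth muscle markers summed to 61.5 to 76.3 against 45.1 to 54.5, and 2 of the 4 tested were called higher (Myh11 and Lmod1). Myh11 had few counts, with 0, 7.27 and 9.16 in the controls. Des, which had the largest control counts of this list, had a log2 fold change of 0.01 and Tagln had 0.29. Neither Des nor Tagln passed the test. The part of muscle cells in the Xirp2 difference was not tested.

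**Figure D4:**
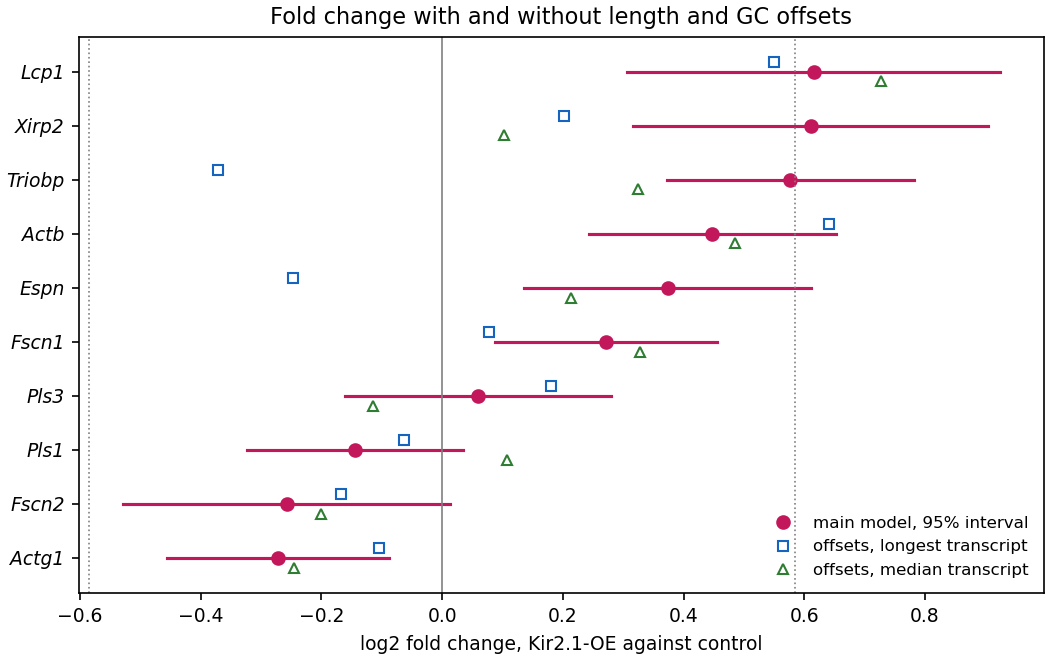
Log2 fold change of each gene, Kir2.1-OE against control, with its 95% interval (magenta) and with length and GC offsets from the longest (blue squares) or the median transcript (green triangles); dotted lines mark 1.5-fold. Actb and Lcp1 keep similar values in all 3 models, Triobp and Espn fall below 0 with offsets from the longest transcript, and the Xirp2 value shrinks with both.

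Other genes that build, anchor or turn over actin filaments were taken as lists. Their counts stand beside 15.5% of all genes tested called higher and 5.08% called lower. At the adjusted p alone these shares were 27.3% and 23.5%. At the stereocilia base and cuticular plate, 13 genes were tested, of which 3 were called higher and 1 lower, with a median log2 fold change of 0.15. The spectrins Sptbn1 and Sptan1, which form the mesh of the cuticular plate, rose by 1.59 and 1.34 on the log2 scale (edgeR adjusted p 1.24e-04 and 1.66e-04) and were also called with the offsets (0.97 and 0.59). Ptprq, a phosphatase of the shaft connectors near the base, rose by 0.89 (edgeR adjusted p 4.30e-04) and by 0.50 with the offsets. Myo6, the myosin that holds the membrane at the base, rose by 0.36 (edgeR adjusted p 0.00411), below 1.5-fold, and had a value of -0.10 with the offsets. Grxcr1, whose product affects the width of stereocilia, fell by 0.82 (edgeR adjusted p 0.00838) and had -0.41 with the offsets, no longer past the test (edgeR adjusted p 0.146). Rdx, which encodes radixin, the link of filaments to the membrane at the taper, rose 1.22-fold (edgeR adjusted p 0.0136).

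Of 9 tested genes of other filament crosslinkers 5 were called higher and 0 lower. Their longest transcripts had a median of 4243 bases, and 26.35% of all genes of 4000 to 8000 bases were called higher. Among those called were Flnc (log2 1.04), which encodes a filamin, Lima1 (0.96), which encodes EPLIN, and the alpha-actinins Actn1 (0.74) and Actn4 (0.61). With the offsets only Lima1 was called higher, at 0.75, and Flna was called lower at -0.61, having had 0.22 without them. The sign of Flna depended on the transcript taken: with offsets from the median transcript it had 0.24 (edgeR adjusted p 0.0359). Espnl, the paralog of Espn, had a log2 fold change of 0.10 (edgeR adjusted p 0.424) and passed as lower with offsets from the longest (-0.56, edgeR adjusted p 0.00364) or the median transcript (-0.49, edgeR adjusted p 0.00368). Of the 4 paralogs of the members with enough counts 0 passed the test without offsets.

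The 20 genes of formins, the Arp2/3 complex and related factors, which start new filaments, are given by complex. Of 9 formins, which elongate unbranched filaments, 8 passed the test as higher and 5 were called, led by Diap2 (log2 0.89) and Fhod3 (0.85). Of the 8 subunits of the Arp2/3 complex, which starts filament branches, 6 passed as lower, by 0.22 (Arpc2) to 0.47 (Arpc5), 1 passed as higher (Arpc1b, 0.44) and Actr2 had -0.04. The other 3 genes, Cobl, Wasl and Wasf2, passed as higher, by 0.30 to 0.53. The longest transcripts of the formins had a median of 5409 bases and those of the Arp2/3 subunits 2092 bases. With the offsets 2 formins passed as higher and 1 as lower, and 2 Arp2/3 subunits passed in each direction. Of all 15303 genes tested, 2211 passed as higher and 3054 as lower with the offsets. Of the 18 genes of actin turnover and capping 8 fell and 3 rose at the adjusted p, and 1 was called, Gsn (log2 0.62), which encodes the severing protein gelsolin. Tmsb10 (-0.54) and Dstn (-0.52), which encode a monomer-binding thymosin and the depolymerising factor destrin, were the lowest, and with the offsets 3 genes of the turnover list passed as higher and 2 as lower.

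**Figure D5:**
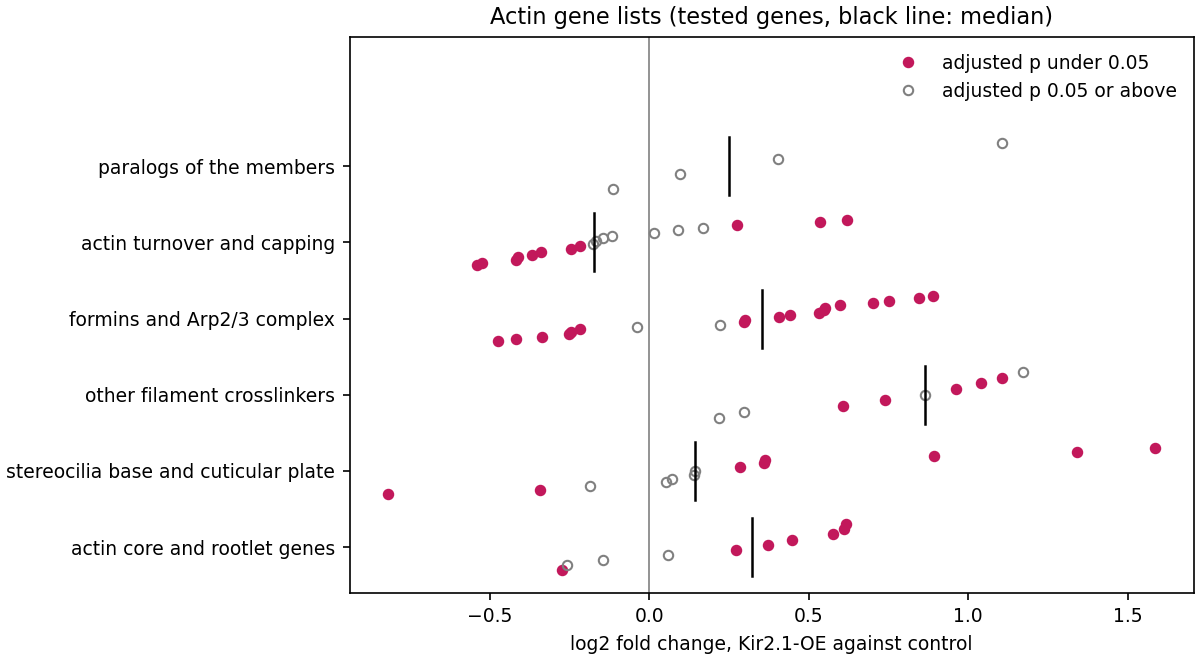
Log2 fold change of each tested gene, Kir2.1-OE against control, in the 10 actin core and rootlet genes and 5 lists of other actin genes; filled points have an edgeR adjusted p under 0.05, open points do not, and the black line is the list's median. The filament crosslinkers lie above 0, the actin turnover genes are centred at -0.17, and the 10 members are centred at 0.32.

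Across the 6 libraries the 6 members that rose had values of Pearson's r with each other, over the log2 CPM, between 0.79 (Espn and Lcp1) and 0.98 (Espn and Xirp2). Actg1, Fscn2 and Pls1 had r between 0.77 and 0.96 among themselves and between -0.97 and -0.48 with those 6. Pls3 had no r above 0.54 with any other member. The genes most like each member were Scap for Espn (r = 0.9956), Lmf2 for Fscn1 (0.9936), Fam175a for Fscn2 (0.9978), Mmachc for Pls1 (0.9969), Panx3 for Pls3 (0.9882) and Slc41a2 for Lcp1 (0.9989). For Triobp this was Zfp592 (0.9991), for Xirp2 Skiv2l (0.9997), for Actb Arap3 (0.9983) and for Actg1 Gnai3 (0.9979). These values describe 6 libraries that share the group difference and the length trend: between 20 genes (Pls3) and 1527 genes (Triobp) had an r above 0.95 with a member. Kir2.1-OE replicate 3, which also had the lowest Kcnj2 count of its group, was the lowest of the 3 Kir2.1-OE libraries in 6 of the 6 members that rose at the adjusted p, as it was in 56.1% of all 4184 such genes.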

How the data were processed

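Poly(A) RNA of 3 Kir2.1-OE and 3 control pools was sequenced by the study in paired reads of 150 bases, mapped to mm10 with the nf-core RNA pipeline and assigned to genes with Salmon. The files deposited by the authors hold the resulting expected counts, of which 6.95% were not whole numbers, unscaled for depth or gene length; tool versions, gene annotation and strand setting are not given in the sources used here. Authors' own comparison columns were not used.

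After rounding, all 6 libraries were fitted in edgeR 4.0.16 (R 4.3.3) with TMM scaling (factors 0.984 to 1.01) and filterByExpr, and the quasi-likelihood p-values were adjusted after Benjamini and Hochberg over 15303 genes. The study's methods name DESeq2, which was run as an alternative (1.42.0). Other alternatives were scaling, filters, glmTreat against a log2 fold change of 0.6, no fold threshold, each library left out, a block for the replicate number and length and GC offsets (loess, span 0.4). Offsets from the median transcript length were chosen after seeing the data. Levels per length used unscaled counts. Ratios were log2 transformed after 0.5 was added to each count and tested by exact permutation. The scripts were tested on simulated data with known fold changes.

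Replicates were pools with separate labels, and the libraries of a group differed by more than sampling noise (chi-square per degree of freedom 15.7 to 31.2); p-values measure the spread between pools, and counting limits cover counting error only. Same-numbered pools did not deviate together (r = -0.106, -0.232 and -0.213), so numbers were not treated as pairs. The column name in the file of control replicate 1 carries the number 4, so its label number, used in this check, the block and the left-out libraries, is uncertain.

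Of the 24411 symbols 23376 matched GENCODE vM21 directly, 650 through an older symbol and 385 not at all; genes without a length received no correction. Symbols of Diaph1 to Diaph3 and Ripor2 were looked up as Diap1 to Diap3 and Fam65b. Genes named were the 10 members, Kcnj2, the list members with the extreme called fold changes or described by role, and single cell type markers. The genes with the highest correlation to each member were named too. Values of 1 list gene that the rule names are not reported here. Members and lists were chosen with earlier results of these data known. The split of formins from Arp2/3 subunits within their list was made after seeing the data.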

Additional observations from a re-analysis of the deposited data

How the results depend on the processing

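Of the 10 members, 2 were called higher with the standard settings. This count was 0 under upper quartile scaling and with glmTreat, the edgeR test against a log2 threshold, at 0.6, and 1 with the length and GC offsets, with these offsets and the replicate block, and with offsets from the median transcript. Without a fold threshold it was 6, with 1 member lower instead of 0. Leaving out 1 library at a time gave 0 to 3, with 0 without Kir2.1-OE replicate 1. Over all genes, 2365 were called higher and 778 lower. These counts became 988 higher with the offsets, 799 and 444 with the offsets and the block, 832 and 57 with glmTreat, and 4184 and 3590 without a fold threshold; 1378 were lower under upper quartile scaling, where Fscn2 and Pls1 passed the adjusted p as lower and Fscn1 no longer passed. The replicate block alone gave 2220 higher and 718 lower, and under it Actg1 no longer passed the adjusted p (log2 -0.27, edgeR adjusted p 0.0709).

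Signs turned in 4 members. Espn had a log2 fold change of -0.25 with the offsets, alone or with the block, and Triobp -0.37 in both. Pls3 had -0.029 under upper quartile scaling, between -0.044 (without control replicate 1) and 0.13 when 1 library was left out, and -0.11 with offsets from the median transcript, where Pls1 had 0.11. The log2 difference of the Fscn2 to Fscn1 ratio was -0.24 with the offsets. Leaving out 1 library moved the Actg1 to Actb difference between -0.82 and -0.64, the Pls3 to Pls1 difference between 0.03 and 0.30 and the Fscn2 to Fscn1 difference between -0.63 and -0.41. The cause of these changes was not tested. Isoforms were not resolved, which limits Triobp and Espn most, and 3 pools per group cannot give an exact p under 0.10.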

Other observations

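The 2 actins and the 2 fascins lie side by side in the genome, a pattern noticed after their values were seen. Actb and Fscn1 are neighbours on chromosome 5 (mm10), 53588 bp apart with no listed gene between them (0 genes), and both rose in Kir2.1-OE (log2 0.45 and 0.27). Actg1 and Fscn2 lie 12991 bp apart on chromosome 11 with 1 listed gene between them, 0610009L18Rik, and had log2 fold changes of -0.27 and -0.26, of which only that of Actg1 passed the edgeR test, while 0610009L18Rik had -0.52 (SE 0.198). Over the 9510 pairs of neighbouring tested genes at most 60000 bp apart, 51.9% had fold changes of the same sign.

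Neuron markers were the marker list with the highest median: 5 of 9 were called higher and 0 lower, with a median log2 fold change of 1.10. Of all genes tested 15.5% were called higher and 5.08% lower. The neuron markers summed to 536 to 1255 CPM in the Kir2.1-OE libraries and 316 to 483 in the controls. The highest sum was in Kir2.1-OE replicate 3, the library in which the members that rose were lowest within their group. Of 8 supporting cell markers 2 were called higher and 1 lower, and of 6 fibroblast markers 2 were called higher and 0 lower. At the adjusted p alone 4 fibroblast markers passed as higher and 2 as lower, Dcn (log2 -0.41) and Lum (-0.49), beside 27.3% and 23.5% of all genes. With the offsets 0 of the 6 were called, where 6.46% of all genes were called higher and 3.41% lower. The part of neurons, supporting cells and fibroblasts in the values of the members was not tested.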
